A study of Rattus norvegicus with 25 samples.

Results

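The enzymes that turn squalene into cholesterol were followed gene by gene in rat hepatoma cells. The 9 genes Sqle, Lss, Cyp51, Tm7sf2, Msmo1, Nsdhl, Ebp, Sc5d and Dhcr7 were taken by name, and every probe set that carried 1 of these symbols and no other was kept. This gave 14 probe sets of 31042 and 9 genes of the 14217 that the array names. A probe set is a group of short DNA probes that together report on 1 transcript, and Lss, Cyp51 and Nsdhl have 2 each and Sc5d has 3. The other 5 genes have 1 probe set.

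McArdle RH7777 is a rat liver tumour line that makes and secretes apoB lipoproteins, and RNA of 7 stably transfected derivatives of it had been put on 25 Affymetrix rat genome arrays. There were 2 control lines with 2 and 3 arrays, 1 Sar1A line with 4 arrays, and 2 lines each of Sar1B and Sar1B:H79G with 4 arrays per line. The Sar1A and Sar1B lines overexpressed the human proteins with a FLAG tag, and the Sar1B:H79G lines overexpressed a constitutively active mutant of human SAR1B that cannot complete GTP hydrolysis. Sar1 is the small GTPase that starts the assembly of COPII vesicles, which carry cargo out of the endoplasmic reticulum. All lines, controls included, grew in 10 µg/ml blasticidin and 250 µg/ml zeocin and received 1 µg/ml tetracycline, the inducer of the constructs, for 24 h before harvest. Each line was grown from a picked colony, so a line stands for 1 clone, and the methods call the arrays of a line technical replicates. The control arrays carry a different array name series from all others, so array series and construct cannot be told apart in any comparison with control. The comparison of Sar1B:H79G with Sar1B lies within 1 series.

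Values are log2 signals, on which a difference of 1 is a factor of 2, and signals of different probe sets cannot be set against each other as amounts of RNA. The arrays of each line were averaged first, and groups were then compared over the 7 averages with limma, a linear model that shares information on the spread across all probe sets. A probe set was called higher or lower at a Benjamini-Hochberg adjusted p under 0.05 over all 31042 probe sets. All adjusted p-values here are from limma, differences are given with their standard error (SE) or 95% confidence interval, and p-values measure the spread between lines only. Of 8 hepatocyte markers, 7 lay at or above the 92.2 percentile of all probe sets by mean signal and Hnf4a at 89.2, whereas the 5 markers of fibroblasts, leukocytes and endothelium lay at or below 50.6. In Sar1B:H79G against control 3 of the 8 hepatocyte markers were called lower, Apob by -1.41, Hnf4a by -0.78 and Serpina1 by -0.64. Against Sar1B 2 were, Apob by -1.81 and Hnf4a by -0.92, while 0 of the 5 other markers were called in either. Each marker stands for its brightest probe set, and on that footing 10.6% of 14217 genes were called lower against control and 7.18% against Sar1B. The part of these markers in the results below was not tested, and of their calls only those of Hnf4a held without each line in turn. Of the markers not called, Alb stood at -1.18 against control without control line 2 and Ttr at -0.77 without Sar1B:H79G line 2. Apoa1 stood at -0.78 against Sar1B without Sar1B line 1.

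Cholesterol is built in the endoplasmic reticulum in a late stage that starts with squalene. Squalene is first oxidized and then folded into the 4-ring sterol lanosterol, after which methyl groups are removed and double bonds are moved and reduced until cholesterol is reached. The genes of this pathway are a textbook set of targets of SREBP-2, a transcription factor that is held in the endoplasmic reticulum when sterols are plentiful and carried to the Golgi in COPII vesicles when they are scarce.

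All 14 probe sets read lower in Sar1B:H79G than in control, and 11 of them were called lower and 0 higher. Over all probe sets 9.17% were called lower and 13.2% higher in this comparison. Each of the 9 genes had at least 1 probe set called lower. The arrays read RNA of whole cultures, so less RNA per cell and fewer expressing cells cannot be told apart. The median difference of the 14 was -0.80, against 0.027 over all probe sets, and the range ran from -1.94 for Dhcr7 to -0.12 for 1 of the 3 Sc5d probe sets. Against Sar1B, 12 of the 14 were called lower and 0 higher, where 5.29% of all probe sets were called lower and 3.34% higher, and the median difference was -0.89. Both comparisons use the same Sar1B:H79G lines, so they are not independent. Against the single Sar1A line, 4 were called lower and 0 higher, with 1.63% of all probe sets called lower and 1.33% higher. All 14 reached an unadjusted p under 0.05 in that comparison, as did 4657 of all 31042 probe sets, and for all 14 the Sar1A arrays lay above every Sar1B:H79G array, which held for 9.58% of all probe sets.

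Native Sar1 left fewer calls. In Sar1B against control, 2 of the 14 probe sets were called higher and 0 lower, where 6.28% of all probe sets were called higher and 2.01% lower. The pair was 1 probe set of Nsdhl at 0.49 and 1 of Sc5d at 0.76, and neither gene's other probe sets were called. Both calls were lost without control line 2 and without either Sar1B line, fits in which fewer of all probe sets were called too. The fit without control line 2 called no probe set of the array in this comparison, so it could not have kept them. In Sar1A against control 0 of the 14 were called by limma and 2 reached an unadjusted p under 0.05, as did 7069 of all 31042 probe sets, with called backgrounds of 0.187% lower and 0.995% higher. Between Sar1A and Sar1B 0 of the 14 were called by limma and 2 reached an unadjusted p under 0.05, as did 2036 of all 31042, where 0% of all probe sets were called lower and 0.00322% higher. These low counts rest on 1 Sar1A line, and a miss does not show that levels were alike.

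**Figure D1:**
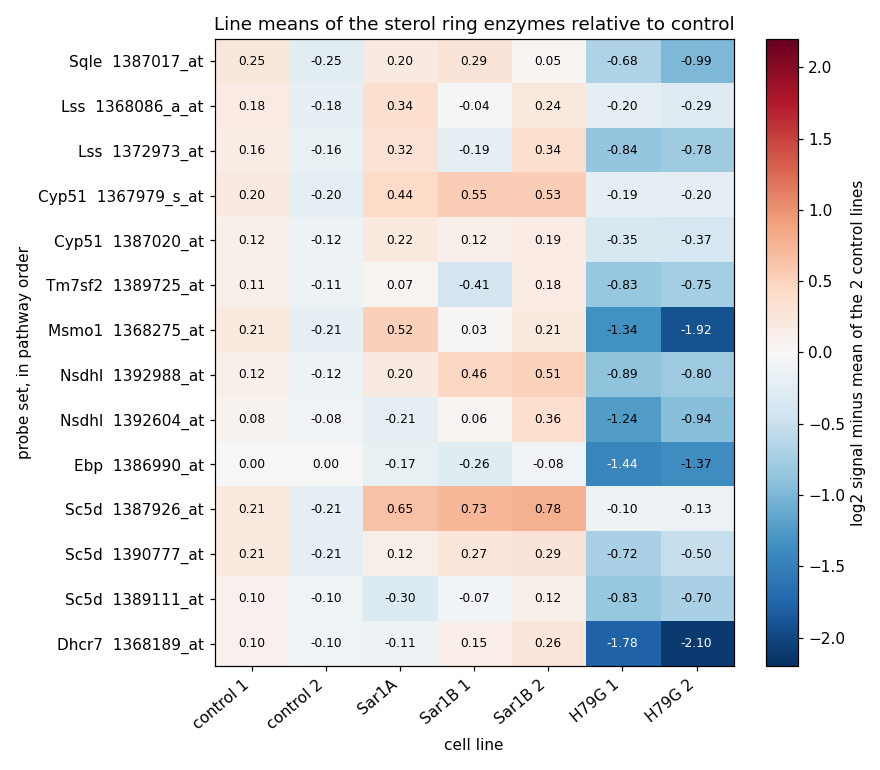
Line means of the 14 probe sets, in pathway order from top to bottom, as the log2 signal minus the mean of the 2 control lines; each column is a cell line and each cell prints its value. Both Sar1B:H79G columns are below 0 in every row, and lowest for Dhcr7 (down to -2.10), Msmo1 (-1.92) and Ebp (-1.44).

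The promoters of the members were looked up because the genes moved together. RefSeq promoters on the rat build GRCr8 were matched for 8 of the 9 members, and the 250 bases before each gene's start were searched on both strands for 3 letter strings. TCACNCCAC, an SRE-like string of the kind SREBPs bind, was in 0 of the 8 windows and in 0.974% of all 33469 promoters. CCAAT, the core of the NF-Y box, was in 6 of the 8 and in 34% of all promoters. GGGCGG, the GC box that Sp1 binds, was in 7 of the 8 and in 30.5% of all promoters. These are descriptions of the letters in these windows, and a string that is missing here says nothing about the factor. The windows of the 4 genes with the largest falls are shown, 5′ to 3′ on the gene's own strand, with CCAAT and GGGCGG and their reverse complements in capitals. Msmo1 lies on chr16:29746863-29747112 (+), Nsdhl on chrX:155817110-155817359 (+), Ebp on chrX:16971212-16971461 (+) and Dhcr7 on chr1:208444184-208444433 (+).
Msmo1: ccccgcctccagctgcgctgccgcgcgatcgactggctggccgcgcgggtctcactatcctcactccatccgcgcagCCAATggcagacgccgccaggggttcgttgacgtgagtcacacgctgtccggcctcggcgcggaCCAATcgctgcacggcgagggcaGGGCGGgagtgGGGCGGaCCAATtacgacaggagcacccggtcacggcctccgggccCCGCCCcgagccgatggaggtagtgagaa
Nsdhl: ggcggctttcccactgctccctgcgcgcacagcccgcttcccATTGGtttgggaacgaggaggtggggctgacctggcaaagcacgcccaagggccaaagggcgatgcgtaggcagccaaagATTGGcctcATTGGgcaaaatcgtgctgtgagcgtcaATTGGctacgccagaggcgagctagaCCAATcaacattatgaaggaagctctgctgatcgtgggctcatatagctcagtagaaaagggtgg
Ebp: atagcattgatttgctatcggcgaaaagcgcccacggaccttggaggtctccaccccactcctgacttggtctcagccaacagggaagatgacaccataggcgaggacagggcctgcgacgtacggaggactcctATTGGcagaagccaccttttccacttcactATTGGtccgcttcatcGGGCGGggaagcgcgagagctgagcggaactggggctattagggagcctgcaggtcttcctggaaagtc
Dhcr7: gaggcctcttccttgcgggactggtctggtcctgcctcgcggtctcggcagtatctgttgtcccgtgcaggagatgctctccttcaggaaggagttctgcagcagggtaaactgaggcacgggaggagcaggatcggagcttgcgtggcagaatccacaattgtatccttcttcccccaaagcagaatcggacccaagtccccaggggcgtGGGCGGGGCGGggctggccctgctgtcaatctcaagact
Msmo1 holds 3 CCAAT and 3 GGGCGG strings and Ebp 2 and 1. Nsdhl holds 5 CCAAT and no GGGCGG, and Dhcr7 holds no CCAAT and 2 GGGCGG that overlap by a single base, so the 4 genes that fell most did not share 1 layout.

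Sqle, squalene epoxidase, puts the oxygen on squalene and is a rate-limiting step of the late pathway. Its probe set 1387017_at read 11.63 and 11.13 in the 2 control lines, 11.59 in Sar1A, 11.67 and 11.43 in the Sar1B lines, and 10.71 and 10.39 in the Sar1B:H79G lines. The highest Sar1B:H79G array, at 10.73, lay below the lowest array of any other line, at 11.04. Sqle was lower in Sar1B:H79G by -0.83 ± 0.19 (SE) against control, at 56.1% of the control signal (adjusted p = 0.03), and by -1.0 ± 0.19 against Sar1B, at 50% (adjusted p = 0.03). The control lines differed from each other by 0.50, and without control line 1 the difference was -0.58 and no longer called (adjusted p = 0.093). The call against control was also lost without Sar1B:H79G line 2 (-0.67, adjusted p = 0.094), and that against Sar1B without either Sar1B line (-0.88 and -1.12) or Sar1B:H79G line 2 (-0.84).

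Lss, lanosterol synthase, closes the rings, and its probe sets gave different answers. For 1372973_at the control lines read 9.42 and 9.09, Sar1A 9.57, the Sar1B lines 9.06 and 9.60, and the Sar1B:H79G lines 8.41 and 8.48. Every Sar1B:H79G array, at 8.55 or less, was below every other array, at 8.93 or more. This probe set was called lower, by -0.81 against control (57% of its signal, adjusted p = 0.031) and by -0.89 against Sar1B (adjusted p = 0.042). Leaving out any 1 of the control or Sar1B:H79G lines ended the call against control, at adjusted p between 0.073 and 0.13, and the call against Sar1B held only without Sar1B line 1 and was lost in a fit of those groups alone (adjusted p = 0.085). For 1368086_a_at the same lines read 9.55 and 9.19 in control, 9.71 in Sar1A, 9.33 and 9.61 in Sar1B, and 9.17 and 9.08 in Sar1B:H79G. Its differences were -0.24 (95% interval -0.60 to 0.11) against control and -0.34 (-0.69 to 0.01) against Sar1B, and neither was called.

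Cyp51, lanosterol 14α-demethylase, takes off the first methyl group. Its probe set 1387020_at read 10.78 and 10.55 in control, 10.89 in Sar1A, 10.78 and 10.85 in Sar1B, and 10.31 and 10.30 in Sar1B:H79G. It was called lower by -0.36 ± 0.09 against control (adjusted p = 0.038), although the highest Sar1B:H79G array, at 10.50, passed the lowest control array, at 10.48, and by -0.51 ± 0.09 against Sar1B (adjusted p = 0.024). For 1367979_s_at the control lines read 11.95 and 11.56, the Sar1B lines 12.30 and 12.29, the Sar1A line 12.19, and the Sar1B:H79G lines 11.56 and 11.56. Control line 2 and both Sar1B:H79G lines thus stood at 1 level and control line 1 above it. The difference was -0.19 (-0.50 to 0.11) against control and was not called, was 0.00 without control line 1 and was called at -0.40 after quantile normalization (adjusted p = 0.036). Against Sar1B the same probe set was called lower by -0.74 (adjusted p = 0.022), with no overlap of arrays. The call of 1387020_at against control was lost without control line 1 (-0.24), without either Sar1B line (-0.36) and without either Sar1B:H79G line (-0.37 and -0.35), as well as in a fit of those groups alone (adjusted p = 0.057) and with the trend and robust options of eBayes (adjusted p = 0.062). Against Sar1B, both probe sets lost their call when any 1 of the Sar1B and Sar1B:H79G lines was left out, at differences of -0.73 to -0.74 and -0.48 to -0.55.

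Tm7sf2, a sterol 14-reductase, reduces the double bond that Cyp51 leaves behind. Its probe set 1389725_at read 9.92 and 9.71 in control, 9.88 in Sar1A, 9.40 and 10.00 in Sar1B, and 8.99 and 9.07 in Sar1B:H79G. All 8 Sar1B:H79G arrays, at 9.13 or less, lay below all other arrays. It was called lower by -0.79 ± 0.19 against control (57.9% of its signal, adjusted p = 0.034). The Sar1B lines differed by 0.59 from each other, and the difference from Sar1B, -0.67 (-1.14 to -0.21), was not called (adjusted p = 0.092) but passed at -0.97 without Sar1B line 1 (adjusted p = 0.016). The call against control did not hold without control line 1 (-0.68), control line 2 (-0.90), Sar1B:H79G line 1 (-0.75) or Sar1B:H79G line 2 (-0.83).

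Msmo1, the oxidase that starts removal of the methyl groups at carbon 4, had the second largest fall against control. The control arrays of 1368275_at averaged 12.97 in line 1, both at 12.94 or above, and read 12.56, 12.61 and 12.48 in line 2, and the Sar1A arrays 13.19, 13.26, 13.28 and 13.40. The Sar1B arrays ran from 12.74 through a median of 12.81 to 13.08, and the Sar1B:H79G arrays from 10.79 through 11.09 to 11.59. No Sar1B:H79G array came near the others, and the mutant lines themselves differed, at 11.42 and 10.84. Msmo1 was lower by -1.63 ± 0.22 than in control, at 32.3% (adjusted p = 0.0061), by -1.75 ± 0.22 than in Sar1B, at 29.7% (adjusted p = 0.0085), and by -2.15 ± 0.27 than in Sar1A, at 22.5% (adjusted p = 0.019). The calls against control and Sar1B held without each line in turn, and the call against Sar1A was lost without either control line (adjusted p = 0.057), which enter only through the shared spread.

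Nsdhl, the dehydrogenase that takes the oxidized carbon off in the next reaction, had 2 probe sets that fell alike. For 1392988_at the lines read 11.36 and 11.12 in control, 11.44 in Sar1A, 11.70 and 11.75 in Sar1B, and 10.35 and 10.44 in Sar1B:H79G. For 1392604_at they read 9.77 and 9.60, then 9.47, then 9.74 and 10.04, then 8.44 and 8.74. In both, every Sar1B:H79G array lay below every other array. The differences from control were -0.84 ± 0.09 (adjusted p = 0.0035) and -1.09 ± 0.14 (adjusted p = 0.0057), and those from Sar1B -1.33 ± 0.09 (adjusted p = 0.0026) and -1.30 ± 0.14 (adjusted p = 0.0062). These 4 calls held without each line in turn. Against Sar1A the first was called lower at -1.04 (adjusted p = 0.014), and the second stood at -0.88 (adjusted p = 0.062). The call of 1392988_at in Sar1B against control, 0.49 (0.26 to 0.71), was the only one in Nsdhl there, with 1392604_at at 0.21 (-0.14 to 0.56).

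Ebp, the sterol isomerase that shifts a ring double bond, had control lines that differed by 0.01 and mutant lines that differed by 0.06. The control arrays of 1386990_at read 10.66, 10.52, 10.60, 10.59 and 10.55, and the Sar1A arrays 10.52, 10.36, 10.42 and 10.36. The Sar1B arrays ran from 10.21 through 10.35 to 10.63, and the Sar1B:H79G arrays from 9.0 through 9.20 to 9.31. The mutant lines thus formed a group of their own about 1 unit below the rest. Ebp was lower by -1.40 ± 0.08 than in control, at 37.8% (adjusted p = 0.00093), by -1.23 ± 0.08 than in Sar1B, at 42.6% (adjusted p = 0.002), and by -1.24 ± 0.10 than in Sar1A, at 42.5% (adjusted p = 0.0075). These calls held without each control, Sar1B and Sar1B:H79G line in turn.

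Sc5d, the desaturase that makes 7-dehydrocholesterol and its relatives, had 3 probe sets. The 1387926_at signal was 10.41 and 9.98 in control, 10.84 in Sar1A, 10.92 and 10.98 in Sar1B, and 10.09 and 10.06 in Sar1B:H79G. Here the mutant arrays, at 9.96 to 10.24, lay among those of control, at 9.87 to 10.46, and the difference was -0.12 (-0.45 to 0.21), turning to 0.09 without control line 1. The 1390777_at signal was 10.49 and 10.07 in control, 10.41 in Sar1A, 10.55 and 10.57 in Sar1B, and 9.56 and 9.78 in Sar1B:H79G, a called difference from control of -0.61 ± 0.15 (adjusted p = 0.033). The 1389111_at signal was 9.03 and 8.83 in control, 8.63 in Sar1A, 8.86 and 9.05 in Sar1B, and 8.10 and 8.22 in Sar1B:H79G, a called difference from control of -0.77 ± 0.10 (adjusted p = 0.0061). Against Sar1B the 3 differed little from each other, at -0.88, -0.89 and -0.80, and all were called (adjusted p between 0.0094 and 0.019). The call of 1390777_at against control was lost without control line 1 (-0.40), either of the Sar1B lines (-0.61, adjusted p = 0.05) or Sar1B:H79G line 1 (-0.50), and in a fit of those groups alone (adjusted p = 0.05). Against Sar1B, 1389111_at kept its call without each line in turn, 1387926_at lost it without the second line of Sar1B (-0.85) or of Sar1B:H79G (-0.86), and 1390777_at without either line of Sar1B (-0.90 and -0.88) or the first of Sar1B:H79G (-0.78).

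Dhcr7 reduces 7-dehydrocholesterol to cholesterol and is the enzyme deficient in Smith-Lemli-Opitz syndrome. It had the largest fall of the 9 genes against control. The control arrays of 1368189_at read 11.10, 10.99, 10.89, 10.75 and 10.87, and the Sar1A arrays 11.03, 10.76, 10.83 and 10.72. The Sar1B arrays ran from 10.94 through 11.15 to 11.34, and the Sar1B:H79G arrays from 8.75 through 8.97 to 9.43. More than 1 log2 unit separated the highest mutant array from the lowest of the others. Dhcr7 was lower by -1.94 ± 0.13 than in control, at 26.1% (adjusted p = 0.0011), by -2.15 ± 0.13 than in Sar1B, at 22.6% (adjusted p = 0.0019), and by -1.83 ± 0.16 than in Sar1A, at 28.1% (adjusted p = 0.0081). The mutant lines differed from each other by 0.33, and the calls against control and Sar1B held without each line in turn. The order of the other groups, Sar1B at 11.15, control at 10.94 and Sar1A at 10.83, was within the spread, with 0 calls among them.

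**Figure D2:**
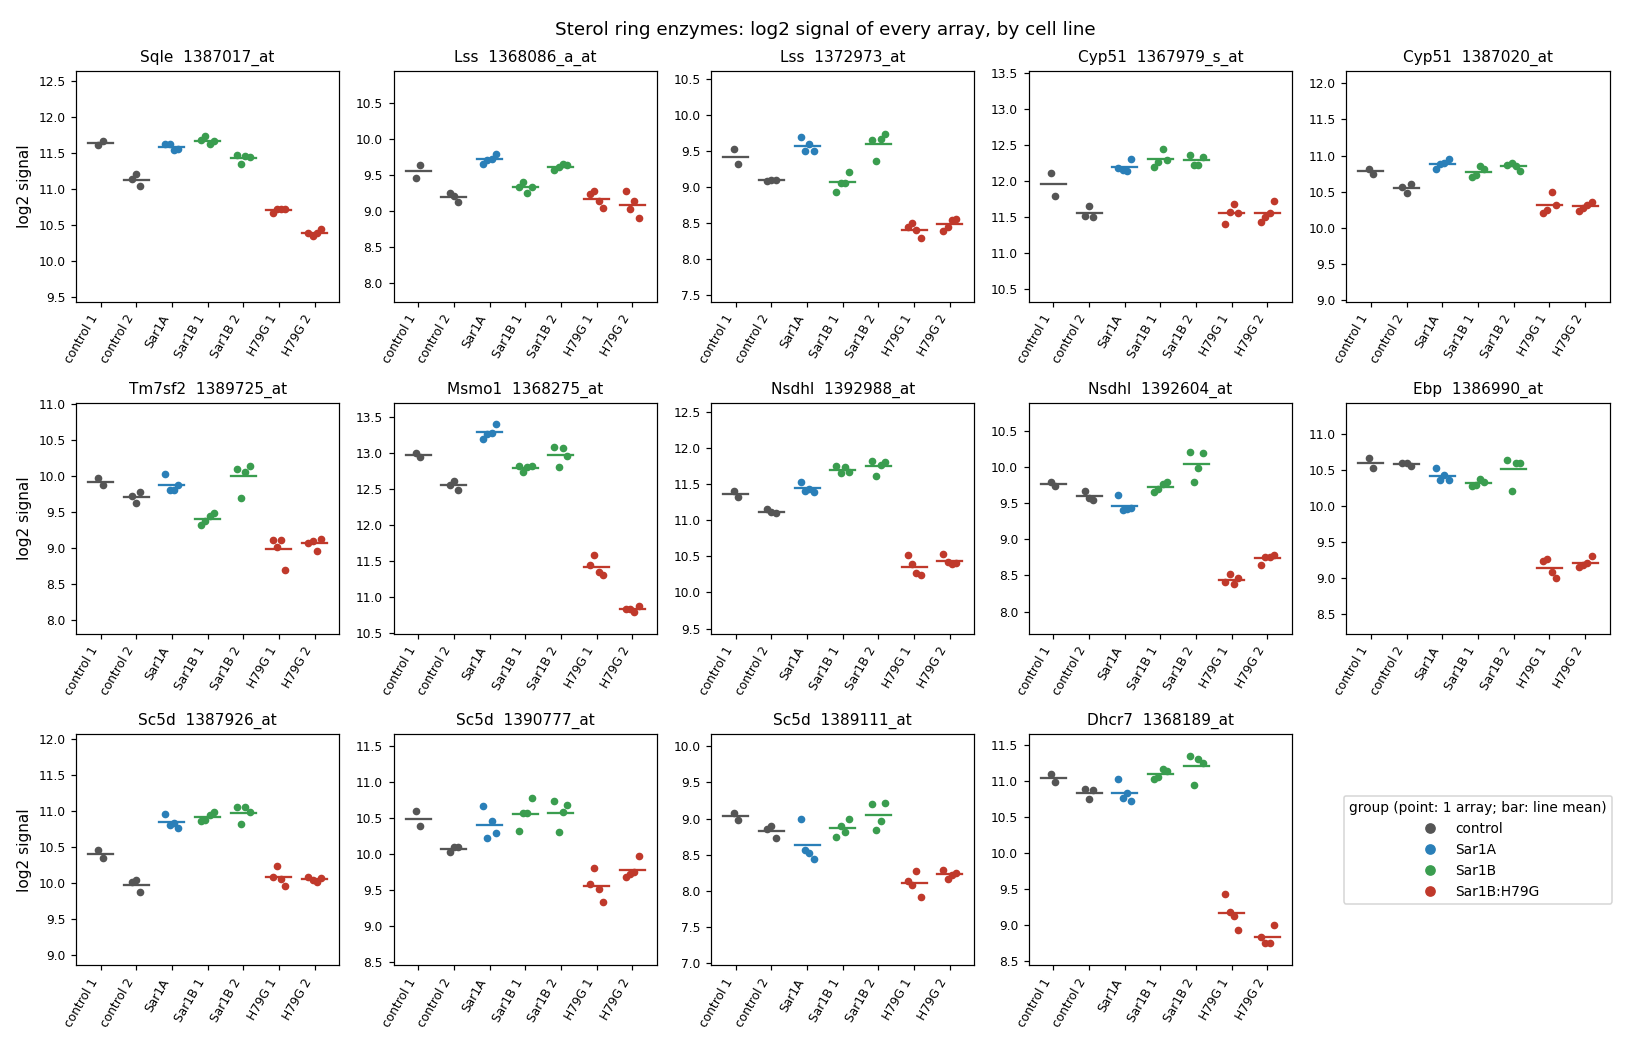
Log2 signal of all 25 arrays for each of the 14 probe sets, by cell line; points are arrays, bars are line means and colours are groups, and every panel spans the same range. For Msmo1, Nsdhl, Ebp and Dhcr7 the Sar1B:H79G arrays form a separate low group, while for Lss 1368086_a_at, both Cyp51 probe sets and Sc5d 1387926_at they overlap with control.

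**Figure D3:**
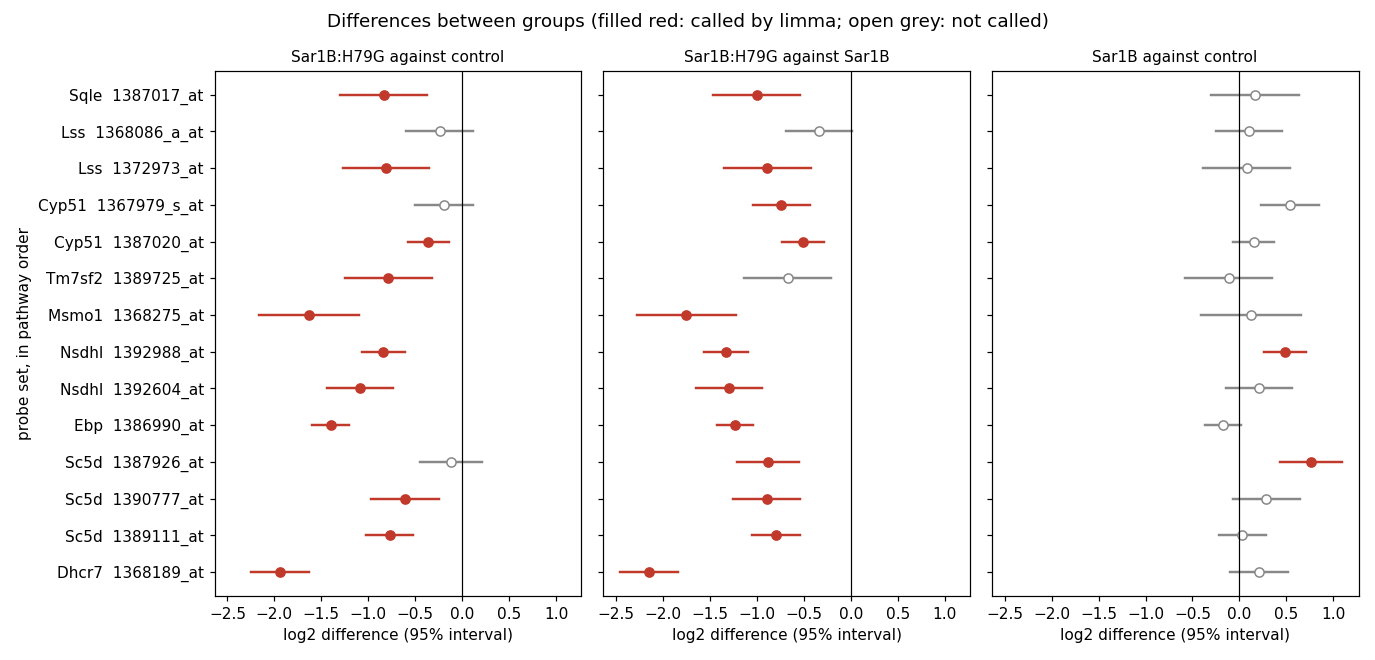
Differences in log2 signal with 95% intervals for the 14 probe sets in 3 comparisons, filled red where limma called them and open grey where not. Of the 14, 11 are called lower in Sar1B:H79G against control and 12 against Sar1B, and 2 are called higher in Sar1B against control.

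The lines of a group did not spread evenly over these genes. Control line 1 read higher than control line 2 in 14 of the 14 probe sets, by a median of 0.29 and at most 0.50, where 54.4% of all probe sets were higher in line 1. In Sar1B, line 2 was higher in 12 of the 14 (median of line 1 minus line 2 -0.15), where 48.6% of all probe sets were higher in line 1. In Sar1B:H79G each line was higher in 7, where 53% of all probe sets were higher in line 1. The median SD between the lines of a group for the 14 probe sets was 0.202 among control, 0.129 among Sar1B and 0.061 among Sar1B:H79G lines, and 0.065, 0.054 and 0.060 over all probe sets. Between arrays of a line the median SD of the 14 was 0.078. Fewer of the 14 were called in Sar1B:H79G against control and against Sar1B when a control, Sar1B or Sar1B:H79G line was left out. The loss was largest without control line 1 and, against Sar1B, without Sar1B line 2. The share of all probe sets called, 22.3% and 8.63% with all lines, fell in each of these fits too.

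Where a gene had several probe sets, the disagreement itself was measured. For each of 9314 pairs of probe sets from 4515 genes, the difference in log2 signal was taken per line and its change between groups fitted with limma, and 6 pairs came from Lss, Cyp51, Nsdhl and Sc5d. The disagreements in Lss, Cyp51 and Sc5d were known beforehand. In Sar1B:H79G against control 3 of the 6 pairs were called, and 37% of all pairs were. In Sar1B:H79G against Sar1B 1 of the 6 was called, against 3.44% of all pairs.

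The Lss pair, 1368086_a_at minus 1372973_at, was called in both comparisons. Its difference was 0.13 and 0.10 in the control lines, 0.27 and 0.01 in Sar1B, 0.14 in Sar1A, and 0.76 and 0.60 in Sar1B:H79G. The 2 mutant lines stood above the other 5. The change was 0.57 ± 0.11 against control (adjusted p = 0.0062) and 0.54 ± 0.11 against Sar1B (adjusted p = 0.041), and the call against Sar1B was lost when any 1 of the 6 control, Sar1B and Sar1B:H79G lines was left out.

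Of the 3 Sc5d pairs, the 2 with 1387926_at differed between the array series. The difference of 1387926_at minus 1390777_at was -0.08 and -0.09 in the control lines and 0.37, 0.40, 0.52, 0.28 and 0.43 in the Sar1B, Sar1B:H79G and Sar1A lines, in that order. It changed by 0.49 against control (adjusted p = 0.0084), a call lost without control line 2 (adjusted p = 0.051) or Sar1B:H79G line 1 (0.37, adjusted p = 0.054), and stood at 0.02 (-0.22 to 0.26) against Sar1B. Likewise 1387926_at minus 1389111_at changed by 0.65 against control (adjusted p = 0.0037) and stood at -0.08 (-0.34 to 0.18) against Sar1B. The remaining pair, 1390777_at minus 1389111_at, read 1.46 and 1.24 in control, 1.69 and 1.52 in Sar1B, 1.78 in Sar1A, and 1.46 and 1.55 in Sar1B:H79G. Its changes, 0.16 (-0.10 to 0.41) against control and -0.10 (-0.35 to 0.16) against Sar1B, were not called. Array controls also moved with the series. The 5′ minus 3′ signal, averaged over 5 poly-A spike-in transcripts added to the RNA, was -1.52 and -1.51 in the control lines and between -0.71 and -0.80 in the other 5, and that of β-actin was -0.81 and -0.94 against -0.49 to -0.71. Whether this bears on Sc5d was not tested.

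In Cyp51 the pair read 1.17 and 1.01 in control, 1.52 and 1.44 in Sar1B, 1.31 in Sar1A, and 1.25 and 1.26 in Sar1B:H79G, and its changes, 0.17 (-0.06 to 0.39) against control and -0.22 against Sar1B, were not called. The Nsdhl pair stood at 0.25 (-0.03 to 0.52) against control and at -0.03 (-0.30 to 0.25) against Sar1B, and neither was called.

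**Figure D4:**
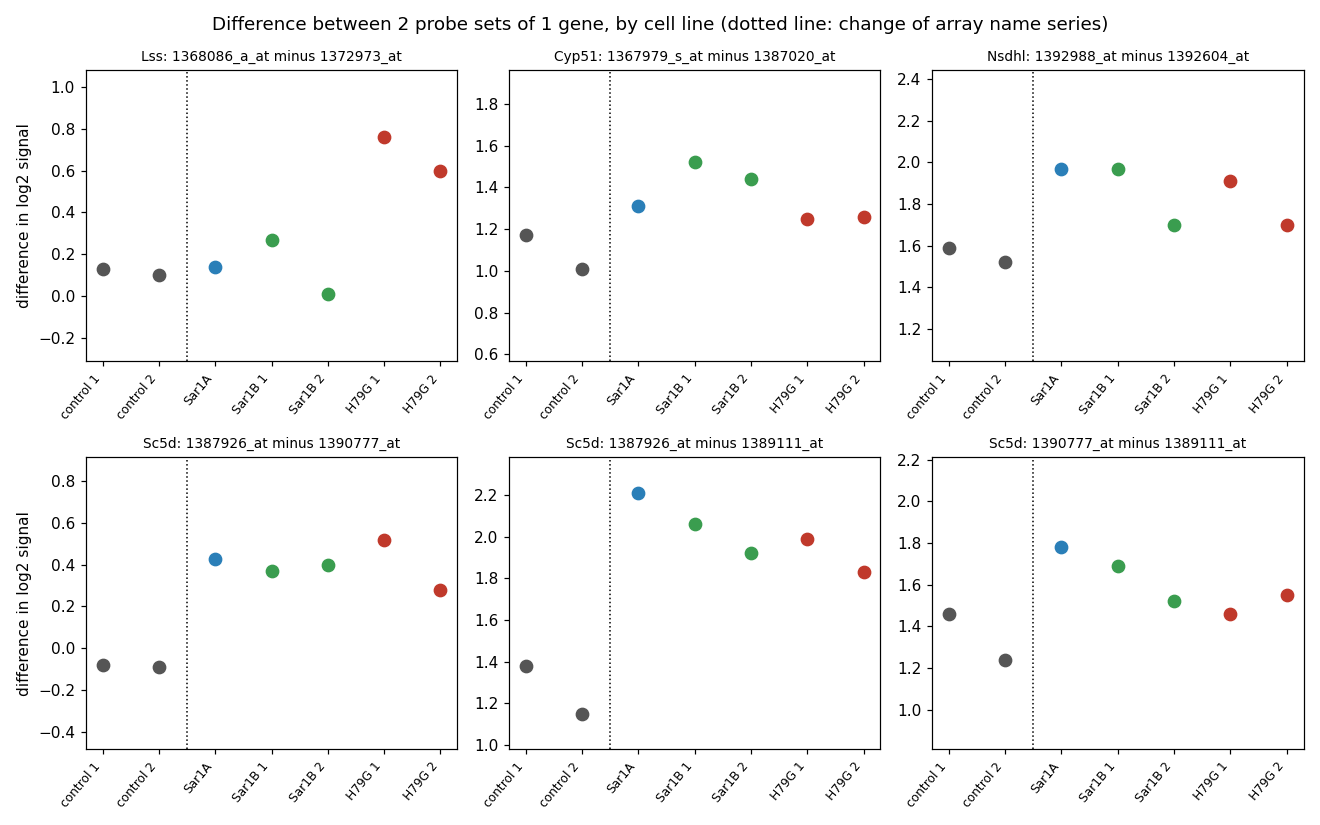
Difference in log2 signal between 2 probe sets of the same gene in each of the 7 lines (grey control, blue Sar1A, green Sar1B, red Sar1B:H79G), with the same span in every panel and a dotted line where the array name series changes. For Lss the 2 Sar1B:H79G lines, at 0.76 and 0.60, stand apart from the other 5, whereas for 1387926_at of Sc5d the 2 control lines stand apart.

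The 9 genes shared their profile over the 7 lines. With the brightest probe set per gene, a member's correlation with the mean of the other 8 ran from 0.75 for Sc5d and 0.82 for Lss and Cyp51 to 0.96 for Nsdhl and Dhcr7 and 0.97 for Msmo1, as a description over 7 points of which 2 are the mutant lines. Among 1974 other genes with an SD over lines of at least 0.3, those closest to the members' mean profile were Elovl6 (r = 0.993), a fatty acid elongase, Mro (0.992), Idi1 (0.991), the isomerase of isopentenyl diphosphate, Tpmt (0.991), thiopurine methyltransferase, and Shmt1 (0.987), serine hydroxymethyltransferase.

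The rest of the pathway was read from lists of genes, each represented by its brightest probe set. On that footing 6 of the 9 members were called lower in Sar1B:H79G against control and 7 of 9 against Sar1B. The background over 14217 genes was 10.6% lower and 13.4% higher against control and 7.18% lower and 4.9% higher against Sar1B. The step from Msmo1 and Nsdhl to Ebp needs a further reductase, Hsd17b7, and a membrane protein, Erg28, that holds the complex together. Hsd17b7 read 9.39 and 9.28 in control, 9.34 and 9.57 in Sar1B, 9.32 in Sar1A, and 8.28 and 8.45 in Sar1B:H79G, and was lower than control by -0.97 ± 0.11 (adjusted p = 0.0034). Erg28 was lower than control by -1.12 ± 0.10 (adjusted p = 0.0021), and both were called lower against Sar1B too, at -1.09 and -0.77, the second of which was lost without Sar1B line 2 (-0.72, adjusted p = 0.051).

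Lbr, the nuclear envelope protein that shares the 14-reductase activity of Tm7sf2, went the other way against control. It read 10.34 and 10.12 in control, 10.87 and 11.25 in Sar1B, 10.98 in Sar1A, and 11.07 and 10.74 in Sar1B:H79G. It was called higher by 0.67 against control (adjusted p = 0.037), a call lost without control line 1 (0.79), control line 2 (0.56) or Sar1B:H79G line 1 (0.51), and stood at -0.16 (-0.56 to 0.25) against Sar1B, which was not called. All 5 lines of the second array series were thus above both control lines.

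The oxidative steps at Sqle, Cyp51, Msmo1 and Sc5d draw electrons through cytochrome P450 reductase or cytochrome b5. Against control, 0 of 6 genes listed as electron donors or other partners of these steps were called lower. In that comparison 1 was called higher, the heme-binding partner Pgrmc2 by 0.55. Against Sar1B, 2 were called lower and 0 higher, Cyb5b by -0.77 and Cyb5a by -0.63. The call of Pgrmc2 was lost without either control line (0.57 and 0.54) or Sar1B:H79G line 2 (0.41), and that of Cyb5a without either Sar1B line (-0.60 and -0.66). Pgrmc1, a relative of Pgrmc2, stood at 0.26 (-0.06 to 0.57) against control. Por, the P450 reductase, stood at -0.37 (-0.68 to -0.05) and -0.50 (-0.82 to -0.19), and was called in neither, but in both without Sar1B:H79G line 1 (-0.57 and -0.70).

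Upstream, from acetoacetyl-CoA to squalene, 6 of 7 measured genes were called lower against control and 7 of 7 against Sar1B, with median differences of -1.18 and -1.57 against -0.83 and -1.0 for the 9 members. The largest were Acat2, a thiolase (-2.17 and -2.07), Fdft1, squalene synthase (-1.64 and -1.80), and Idi1 (-1.46 and -2.05). The call of Mvk, mevalonate kinase, against Sar1B was lost without Sar1B line 2 (-0.53, adjusted p = 0.13) or either Sar1B:H79G line (-0.61 and -0.67). Of 8 genes that control SREBPs or follow sterol levels, 4 were called lower against control and 5 against Sar1B, and 0 higher in either. Insig1, the sterol-regulated protein that retains SREBPs in the endoplasmic reticulum, changed by -1.54 and -2.45, Stard4, a sterol carrier, by -1.03 and -1.05, and Srebf1 by -0.67 and -1.12. Insig1 was itself called higher in Sar1B against control, by 0.91 (adjusted p = 0.029), and stood at 0.90 in Sar1A, not called. Srebf2, the gene of SREBP-2, was called lower against control by -0.57 (adjusted p = 0.0045). It stood at -0.29 (-0.46 to -0.12) against Sar1B and was not called. In Sar1B against control it stood at -0.29 (-0.45 to -0.12), also not called. Against control, the call of Stard4 was lost without control line 2 (-0.98) and that of Srebf1 without control line 1 (-0.51) or the second mutant line (-0.56). Against Sar1B, Scap and Mbtps1, which escort and cleave SREBPs, lost their call when any 1 of the 6 control, Sar1B and Sar1B:H79G lines was omitted, at -0.25 to -0.31 and -0.29 to -0.46. Insig2, a relative of Insig1, stood at 0.55 (0.12 to 0.99) against control and 0.60 (0.17 to 1.03) against Sar1B, was called in neither, and was called higher in both without Sar1B:H79G line 1 (0.81, adjusted p = 0.019, and 0.85, adjusted p = 0.026). Of 7 genes for the later fates of cholesterol, 3 were called lower against control and 2 against Sar1B, among them Lcat, which esterifies cholesterol in plasma (-1.75 and -0.88), and Cyp27a1, which makes oxysterols (-0.75 and -1.14). Lcat was also called lower than control in Sar1B (-0.87, adjusted p = 0.029) and in Sar1A (-1.39, adjusted p = 0.042). In Sar1B:H79G against Sar1A it stood at -0.36 (-0.82 to 0.10) and was not called. Abca1, the cholesterol exporter, was called against control at -0.47 and stood at -0.16 (-0.40 to 0.08) against Sar1B. The call of Abca1 was lost without either control line (-0.43 and -0.51) or Sar1B:H79G line 2 (-0.37), and that of Lcat against Sar1B without Sar1B line 2 (-0.73) or either Sar1B:H79G line (-0.93 and -0.83).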

How the data were processed

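RNA from 7 McArdle RH7777 lines was measured on 25 arrays. The authors normalized raw intensities by loess and MAS 5 in CARMAweb (version not given in the sources used here), and the deposited values hold a log2 signal for each probe set on each array and no detection calls. Their range, 1.64 to 15.4, was the basis for taking them as log2. Array medians ran from 8.10 to 8.16, and 0 pairs of arrays were identical. After 57 array controls were left out, 31042 probe sets remained, of which 20826 had 1 symbol, 436 several and 9780 none in GEO's platform annotation. Averages per line were fitted in R 4.3.3 with limma 3.58.1, using 1 coefficient per group, 3 residual and 3.16 prior degrees of freedom. For Sar1A, with its single line, the spread of the other groups was assumed. The fits were tested on simulated data. SAM, which the methods used on single arrays, was not run.

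The members, gene lists and tests were chosen with earlier results of these data known. Named genes are the members, the 3 largest changes of each other list, the genes nearest the ring steps in full and the 5 genes with the most similar profile. Mvk, Scap, Mbtps1, Insig2 and Srebf2 were named after their values were seen. Some listed genes are not analysed here. Alternatives were the array as replicate, lines as random blocks (statmod 1.5.0), quantile or median scaling, removal of dim probe sets, fits of 2 groups, robust eBayes with a trend, a block for the line number, omission of each line, gene means and, chosen after seeing the data, 2 arrays left out.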

Additional observations from a re-analysis of the deposited data

Results flagged for a closer look

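In 2 of 70 line and probe set combinations with 4 arrays, 1 array stood apart from the rest of its line by Dixon's test, and chance alone gives about 1 in 20. Array 1 of the Sar1A line read 9.62 for Nsdhl 1392604_at, and the other 3 read 9.40 to 9.43. Array 2 of Sar1B line 2 read 10.21 for Ebp 1386990_at, and the other 3 read 10.59 to 10.63. That array was also the lowest of its line for Tm7sf2 (9.70, others 10.05 to 10.13) and Dhcr7 (10.94, others 11.25 to 11.34). The same held for Sqle, Lss 1372973_at, Msmo1 and every Nsdhl and Sc5d probe set, and for Cyp51 1367979_s_at it tied for lowest. It was not the lowest for Lss 1368086_a_at or Cyp51 1387020_at. An array can thus shift several probe sets together, so the 70 combinations are not independent and 1 in 20 is only a rough guide. Without both arrays, the counts of member probe sets called stayed at 11 in Sar1B:H79G against control, 12 against Sar1B and 4 against Sar1A. The shares of all probe sets called there were 20.5%, 8.38% and 2.62%.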

How the results depend on the processing

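The main counts were 11, 12 and 4 of the 14 probe sets called in Sar1B:H79G against control, Sar1B and Sar1A. Leaving out any control, Sar1B or Sar1B:H79G line lowered the first 2 counts and, in these comparisons, the share of all probe sets called. It did not lower the third count. The calls in Sar1B against control ended without control line 2 or either Sar1B line. Fewer of all probe sets were called in these fits too, and none without control line 2. The call among the probe set pairs against Sar1B ended whichever of these lines was left out. With the mean of all probe sets per gene, 7 of 9 genes were called against control, 7 of 9 against Sar1B and 0 in Sar1B against control. With each array as a replicate, which takes technical replicates as independent, 14 were called in Sar1B:H79G against Sar1A and 8 in Sar1B against control. In Sar1A against control 8 were called, and 5 between Sar1A and Sar1B. The shares of all probe sets called in these 4 comparisons were 23.2%, 42.2%, 36.2% and 10.3%. Of the 6 pairs, 5 and 2 were called against control and Sar1B, and the share of all pairs called there is not given here. With the line as a random block the counts were 14 in Sar1B:H79G against Sar1A, 4 in Sar1A against control and 1 between Sar1A and Sar1B. The shares of all probe sets called there were 14.6%, 19.3% and 3.84%. In Sar1B:H79G against Sar1A, quantile normalization gave 7 and the filter on dim probe sets 7, where 3.38% and 6.07% of all fitted probe sets were called. The fit of those 2 groups alone gave 0, where limma called 0 of all probe sets. That fit thus lost the calls of Msmo1, Nsdhl 1392988_at, Ebp and Dhcr7 (adjusted p = 0.1, 0.075, 0.069 and 0.076). Quantile normalization gave 1 in Sar1B against control, where 8.2% of all probe sets were called. The pairs against control kept 2 to 3 calls without 1 line. Without control line 1, Cyp51 1367979_s_at and Sc5d 1387926_at in Sar1B:H79G against control changed sign, to 0.00 and 0.09, and were not called, with -0.39 and -0.33 without control line 2. The cause of these shifts was not tested. Line numbers were taken to mark lines and not to pair them. Deviations of lines with the same number correlated at 0.0071, 0.192 and 0.0752, which with 2 lines per group cannot settle whether the numbers pair lines. The number as a replicate block gave 10 in Sar1B:H79G against control, 11 against Sar1B and 1 in Sar1B against control. The shares of all probe sets called there were 22.6%, 8.45% and 6.46%. No detection calls or background level were used here, and the few lines of each group set the precision.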
